A study of Mus musculus with 9 samples.

Results

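Malat1, Neat1, Gas5, Snhg1, Miat and Rmst are long non-coding RNAs (lncRNAs), transcripts that are not translated into a known protein. These 6 genes were taken by symbol from a list of nuclear and neural lncRNAs, and all 6 were present among the 34590 genes of every library. RNA was measured in telencephalons, the embryonic forebrain vesicles, of mice at E12.5, the embryonic day, from 5 wild-type (WT) embryos and from 4 double-knockout (dKO) embryos. The dKO embryos lacked Lats1 and Lats2 where Nestin-Cre, a Cre recombinase made in neural progenitors and inherited by their descendants, is active, so cells of other lineages in the dissected tissue were not its targets. All 9 embryos were of a mixed strain background, and litters were not given. Cells were counted and a fixed amount of synthetic ERCC spike-in RNA was added per cell number before extraction, so that RNA per cell could be compared as well as the composition of the RNA.

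The Lats1 and Lats2 kinases of the Hippo pathway restrain the transcriptional coactivators YAP and TAZ, which act through TEAD factors. Malat1 and Neat1 lie beside each other in the genome and stay in the nucleus: Malat1 RNA collects in nuclear speckles, bodies rich in splicing factors, and Neat1 RNA is the scaffold of paraspeckles, bodies that hold RNA-binding proteins such as Nono and Sfpq. Gas5 and Snhg1 are hosts of small nucleolar RNAs (snoRNAs), which guide the modification of ribosomal RNA and are cut out of the introns; the spliced exons that remain are exported, engaged by ribosomes and degraded by nonsense-mediated decay. Gas5 belongs to the transcripts that begin with a terminal oligopyrimidine tract, as the messengers of ribosomal proteins do. Miat, also called Gomafu, is a nuclear lncRNA of neurons and their precursors, and Rmst is a lncRNA of the embryonic brain that is marked by expression in the midbrain, the dorsal midline and neurogenic cells.

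The start regions are shown because Gas5 and Snhg1 changed together below, while Malat1 and Miat changed the other way. Each window covers 50 bases before and 50 bases after the RefSeq start on GRCm38.p6, 5′ to 3′ on the gene's strand, and capitals mark a motif match or a run of pyrimidines at the start. Gas5 is on the plus strand at chr1:161035116-161035215, where 13 of its 25 GENCODE transcripts start within 20 bases. Snhg1 is on the plus strand at chr19:8723437-8723536, Miat on the minus strand at chr5:112228899-112228998 and Malat1 on the minus strand at chr19:5802623-5802722.
Gas5: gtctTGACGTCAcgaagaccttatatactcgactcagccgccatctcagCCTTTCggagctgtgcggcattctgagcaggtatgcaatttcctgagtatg
Snhg1: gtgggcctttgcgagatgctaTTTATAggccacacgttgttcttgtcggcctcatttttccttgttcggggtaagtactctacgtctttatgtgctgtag
Miat: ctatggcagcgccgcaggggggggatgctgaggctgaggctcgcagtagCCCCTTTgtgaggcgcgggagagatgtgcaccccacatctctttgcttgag
Malat1: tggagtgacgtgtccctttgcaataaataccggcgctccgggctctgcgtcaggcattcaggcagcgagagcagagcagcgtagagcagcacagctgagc

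In the Gas5 window the capitals mark the cAMP response element TGACGTCA and a run of 6 pyrimidines that begins with a C next to the annotated start. The Miat window has a run of 7 pyrimidines at its start, and the Snhg1 window holds the TATA box letters TATAAA on the opposite strand. Over 32851 mouse promoters of 300 bases, searched on both strands, TGACGTCA occurred in 1.79% and TATAAA in 13.6%. A C within 5 bases of the start followed by at least 4 pyrimidines, read on the gene's strand, occurred in 18.3%. The letters GGAATG of a TEAD-type site, present in 14.7% of all promoters, were in 0 of the 5 promoters of 300 bases that the table held for 4 members, and this says nothing about YAP, TAZ or TEAD at these genes.

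Between 12906561 and 45803152 reads per library were counted in genes and between 198776 and 706808 in spike-ins. Gene counts per spike-in count were 58.1 ± 6.10 in WT (SD, n = 5) and 79.1 ± 5.90 in dKO (SD, n = 4), a fold of 1.36 with no overlap (two-sided exact permutation test, p = 0.00794, the smallest that 126 assignments can give). Lats1, the targeted gene, was at 124.7 to 136 CPM (counts scaled to a common library size) in WT and 58.8 to 61.3 in dKO, while Lats2 was at 20.2 to 32.4 in WT and 36.3 to 56.4 in dKO. A count over the whole Lats2 gene does not show whether its deleted exons were read. WT 2, WT 3 and WT 4 stood apart: 39.3, 40.8 and 41.3% of their reads fell in no gene, against 32.5 and 34.4% in WT 5 and WT 1 and 32.0 to 35.6% in dKO. Calls on the 6 lncRNAs and on the gene lists were therefore also made without these 3 libraries. With reads in no gene added to the gene counts, the log2 difference per spike-in count was 0.31 in place of 0.45 (two-sided exact permutation test, p = 0.0476). The telencephalon marker Emx1 was present in both groups, with means of 50.5 CPM in WT and 41.0 CPM in dKO.

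The 6 lncRNAs were present at very different levels. They took 1.22 ± 0.0629% of gene counts in WT (SD, n = 5) and 1.03 ± 0.0483% in dKO (SD, n = 4), and Malat1 alone was 87.6 to 90.9% of that in each library. By mean CPM, Malat1 ranked 2 among 17182 tested genes and 1 among the 674 that RefSeq classes as lncRNA. Miat ranked 4 among these lncRNAs, Gas5 12, Rmst 14, Snhg1 27 and Neat1 55. Counts behind these levels ran from 329 to 1083 per library for Neat1 and from 135783 to 411034 for Malat1, and the other members lay between 796 (Snhg1) and 35283 (Miat).

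Levels per length kept this order. WT CPM per kilobase of exon, with lengths from GENCODE M21, was 1550 ± 84.8 for Malat1 and 99.6 ± 5.20 for Miat (SD, n = 5). It was 45.8 ± 0.895 for Gas5, 21.2 ± 3.70 for Rmst, 18.2 ± 1.36 for Snhg1 and 0.997 ± 0.137 for Neat1 (SD, n = 5). Rmst and Snhg1 did not differ beyond their spread, and for the other neighbouring pairs the difference exceeded the SDs. The lengths are approximate, because the annotation behind the counts is not given in the sources used here: with its longest transcript of 2.891 kb in place of 7.423 kb of merged exons, Rmst was at 54.5 CPM per kilobase. On that basis Gas5 was at 67.4 and Snhg1 at 19.8, so the order was the same.

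Per spike-in count, which stands for RNA per counted cell, 3 of the 6 lncRNAs rose in dKO: Neat1, Gas5 and Snhg1, by 1.59 to 1.66-fold. Malat1, Miat and Rmst did not pass the test. Of all 17182 genes tested, 61.1% rose and 0.698% fell (edgeR's quasi-likelihood test with Benjamini-Hochberg adjustment, threshold 0.05), so 3 risers of 6 is near the background share. The median gene rose by 0.43 on the log2 scale, with quartiles of 0.25 and 0.57, and the median of the 6 lncRNAs was 0.46. 0 members fell by edgeR's adjusted p, and the number was also 0 without adjustment (p under 0.05), in DESeq2 and in limma-voom.

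Relative to the library, on the scale of TMM-scaled CPM that sets each gene against the bulk of the others, the 6 lncRNAs split. Gas5 and Snhg1 rose, Malat1 and Miat fell, and Neat1 and Rmst did not pass the test. The background was 13.7% of genes higher and 12% lower, with a median log2 change of -0.01 and quartiles of -0.18 and 0.14. The split did not rest on the tool: edgeR, DESeq2 and limma-voom each gave 2 higher and 2 lower members. When WT 2, 3 and 4 were left out, only Gas5 of the 6 passed, against a background of 2.51% higher and 0.949% lower; per spike-in count Neat1, Gas5, Snhg1 and Rmst then rose, against 49.1% higher and 0.25% lower. In bulk tissue, fewer cells of a type and less RNA of a gene per cell cannot be told apart.

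**Figure D1:**
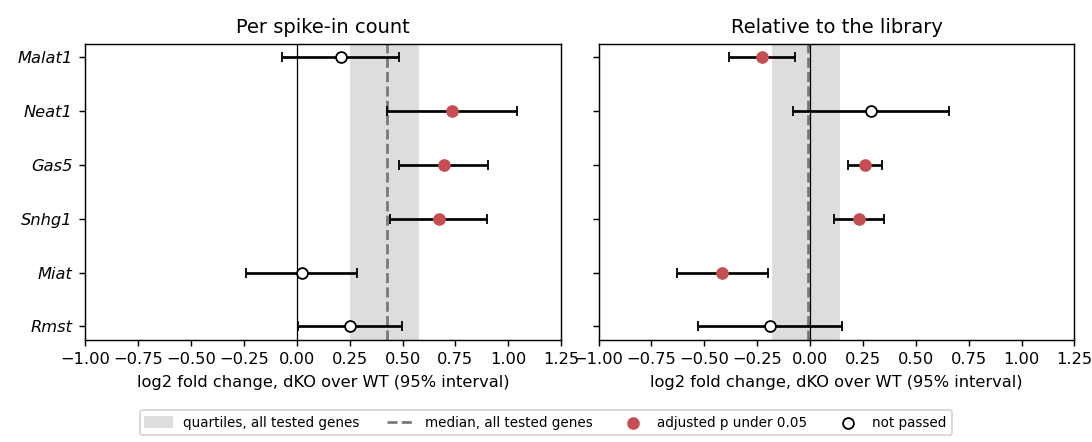
Log2 fold change of dKO over WT for the 6 lncRNAs per spike-in count (left) and relative to the library (right), with points for edgeR estimates and bars for 95% intervals. Filled points had an adjusted p under 0.05. The grey band spans the quartiles of all 17182 tested genes and the dashed line their median, 0.43 on the left and -0.01 on the right. The estimates of Neat1, Gas5 and Snhg1 lie above the band in both panels, and those of Malat1, Miat and, at its edge, Rmst lie below it.

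Malat1, the speckle lncRNA, made up a smaller part of the RNA in dKO, while its amount per spike-in count was not shown to change. In CPM it was 10376, 10860.2, 11593, 11161 and 10120.3 in WT 1 to 5 and 9112, 8580.5, 9657 and 9613 in dKO 1 to 4. Every dKO library was below every WT library, although the lowest WT and the highest dKO were close. The mean was 10822 ± 592 CPM in WT (SD, n = 5) and 9241 ± 505 in dKO (SD, n = 4), and the relative log2 change was -0.23 (95% interval -0.38 to -0.07, edgeR adjusted p = 0.0367). Among all genes, 9.74% were likewise lower without overlap. The 3 highest values of Malat1 were those of WT 2, 3 and 4, the libraries with the most reads in no gene, and without them the log2 change was -0.15 with an adjusted p of 0.461. The call was also lost when any one of WT 2, WT 3, WT 4 or dKO 2 was left out, with log2 changes between -0.25 and -0.19 over all single libraries left out. With the share of reads in no gene as a covariate in the fit, the log2 change was -0.14 (edgeR adjusted p = 0.314).

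Per 1000 spike-in counts Malat1 was at 562, 540, 739, 681 and 632 in WT 1 to 5 and at 638, 724, 760 and 793 in dKO 1 to 4. WT 3 and WT 4 lay inside the dKO range, so the groups overlapped. The mean was 631 ± 82.4 in WT (SD, n = 5) and 729 ± 66.7 in dKO (SD, n = 4), a fold of 1.15 (95% interval 0.954 to 1.40, edgeR adjusted p = 0.183). The interval holds both no change and the 1.34-fold rise of the median gene.

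**Figure D2:**
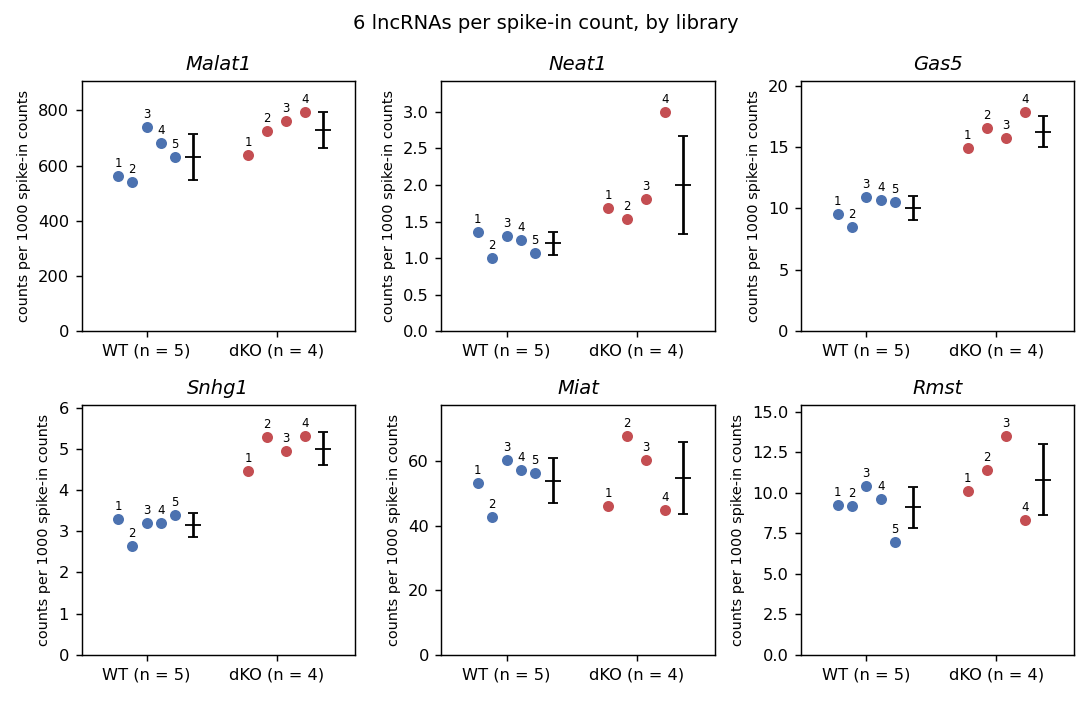
Counts per 1000 spike-in counts of the 6 lncRNAs, 1 panel per gene, in 5 WT (blue) and 4 dKO (red) libraries, numbered as in the text, with the mean and SD beside each group. Gas5, Snhg1 and Neat1 have every dKO library above every WT library, as for 48.4% of all genes, and Malat1, Miat and Rmst overlap.

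Neat1, the paraspeckle scaffold, rose per spike-in count, and its rise leaned on one dKO embryo. Per 1000 spike-in counts it was at 1.36, 1.01, 1.31, 1.25 and 1.07 in WT 1 to 5 and at 1.68, 1.53, 1.81 and 2.99 in dKO 1 to 4. All dKO libraries were above all WT libraries, as for 48.4% of all genes, and dKO 4 was far above the other 3. The mean was 1.20 ± 0.152 in WT (SD, n = 5) and 2.00 ± 0.670 in dKO (SD, n = 4), a log2 change of 0.73 (95% interval 0.43 to 1.04, edgeR adjusted p = 0.000145). Without dKO 4 the log2 change was 0.49 (edgeR adjusted p = 0.00235), and without WT 2, 3 and 4 it was 0.71 (edgeR adjusted p = 0.00321).

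Relative to the library Neat1 was at 25.1, 20.2, 20.5, 20.4 and 17.2 CPM in WT 1 to 5 and at 24.01, 18.2, 22.95 and 36.3 CPM in dKO 1 to 4. Only dKO 4 lay above the WT range. The log2 change of 0.29 did not pass the test (95% interval -0.08 to 0.66, edgeR adjusted p = 0.234), and without dKO 4 it was 0.09.

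Set against each other inside each library, which removes any scaling, there were 2.42, 1.86, 1.77, 1.83 and 1.70 Neat1 counts per 1000 Malat1 counts in WT 1 to 5. In dKO 1 to 4 there were 2.63, 2.12, 2.38 and 3.78. The groups overlapped through WT 1, which was above dKO 2 and dKO 3. The ratio was 1.40-fold higher in dKO on the log2 mean (two-sided exact permutation test, p = 0.0317, 0.0634 after adjustment over the 2 ratios tested), which misses the threshold. Its log2 difference of 0.48 was 0.32 without dKO 4 (adjusted p = 0.214) and 0.39 without WT 2, 3 and 4 (adjusted p = 0.400, exact permutation tests).

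Of the 8 tested neighbours of Malat1 and Neat1, 1 gene was called higher and 1 lower on the relative scale. Among all genes these shares were 13.7% and 12%. Frmd8, a neighbour on the Neat1 side, went from 26.6 ± 1.10 to 34.3 ± 1.29 CPM (SD, n = 5 and 4; log2 change 0.37, edgeR adjusted p = 0.00064), and it passed without WT 2, 3 and 4 as well (adjusted p = 0.0302). Ltbp3, a latent TGF-beta binding protein, went from 23.99 ± 4.85 to 15.8 ± 2.90 CPM (log2 change -0.62, edgeR adjusted p = 0.0144), and -0.27 without those libraries (adjusted p = 0.390).

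For proteins of the bodies that these RNAs build or enter, the median relative log2 change was 0.00 (paraspeckles) and 0.04 (speckles). Among all genes 13.7% were called higher and 12% lower relative to the library. Of 16 paraspeckle proteins, edgeR called 0 higher and 1 lower on that scale. Without adjustment (p under 0.05) these were 2 and 2, while DESeq2 gave 1 and 2 and limma-voom 1 and 1 after it. The one that fell was the cold-inducible RNA-binding protein gene Cirbp, from 94.7 ± 7.07 to 74.7 ± 6.40 CPM (log2 change -0.35, edgeR adjusted p = 0.00379). It was at -0.27 without WT 2, 3 and 4 (adjusted p = 0.110). Nono was at 594.9 CPM in WT and 611 in dKO, and Sfpq at 625 and 585. Of 20 nuclear speckle proteins 1 rose, the splicing factor gene Srsf2 (log2 change 0.16, edgeR adjusted p = 0.0456), while DESeq2 called 2 higher and 1 lower. Srsf2 was at 0.067 when WT 2, 3 and 4 were left out (adjusted p = 0.602), and neither protein list then had a call by edgeR; without adjustment (p under 0.05) 1 paraspeckle gene was higher, 1 was lower and the speckle list had 0. Per spike-in count 15 of 16 paraspeckle and 19 of 20 speckle genes rose, against 61.1% of all genes. Their medians were 0.43 and 0.47, against 0.43 for all genes.

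Gas5, a snoRNA host, rose on both scales. Relative to the library it was at 176, 170.4, 172, 175 and 168 CPM in WT 1 to 5 and at 213, 196, 199.9 and 216 CPM in dKO 1 to 4. The WT values were close together and all lay below the lowest dKO library, an arrangement found for 12.6% of genes. The mean was 172 ± 3.37 CPM in WT (SD, n = 5) and 206 ± 9.78 in dKO (SD, n = 4), a fold of 1.20 (log2 change 0.26, 95% interval 0.18 to 0.34, edgeR adjusted p = 0.000762). The call held without WT 2, 3 and 4 (log2 change 0.26, edgeR adjusted p = 0.0436) and under each other alternative run, with adjusted p between 2.71e-08 and 0.0436.

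Per 1000 spike-in counts Gas5 was at 9.55, 8.48, 11.0, 10.7 and 10.5 in WT 1 to 5 and at 14.9, 16.5, 15.7 and 17.8 in dKO 1 to 4. All dKO libraries lay above all WT libraries, as for 48.4% of all genes. The mean was 10.03 ± 1.02 in WT (SD, n = 5) and 16.3 ± 1.25 in dKO (SD, n = 4), a fold of 1.62 (95% interval 1.40 to 1.87, edgeR adjusted p = 2.1e-06). Its interval lies above the 1.34-fold rise of the median gene.

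Snhg1, the other snoRNA host, rose on both scales too, but its relative call depended on the libraries used. It was at 60.8, 53.0, 50.1, 52.5 and 54.3 CPM in WT 1 to 5 and at 63.9, 62.7, 62.9 and 64.4 CPM in dKO 1 to 4. The dKO libraries were nearly equal, and WT 1 came close to them without reaching them. The mean was 54.1 ± 4.03 CPM in WT (SD, n = 5) and 63.5 ± 0.810 in dKO (SD, n = 4), a fold of 1.18 (log2 change 0.23, 95% interval 0.12 to 0.35, edgeR adjusted p = 0.00882). On WT 1 and WT 5 alone, without WT 2, 3 and 4, the log2 change was 0.14 with an adjusted p of 0.273.

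Per 1000 spike-in counts Snhg1 was at 3.30, 2.64, 3.19, 3.20 and 3.39 in WT 1 to 5 and at 4.47, 5.29, 4.95 and 5.31 in dKO 1 to 4. No library of one group reached the other, and 48.4% of all genes were likewise higher without overlap. The mean was 3.14 ± 0.294 in WT (SD, n = 5) and 5.01 ± 0.392 in dKO (SD, n = 4), a fold of 1.59 (95% interval 1.36 to 1.87, edgeR adjusted p = 1.26e-05), and the call held without WT 2, 3 and 4 (log2 change 0.58, edgeR adjusted p = 0.00239). The ratio of Snhg1 to Gas5 was not shown to differ between the groups. There were 314 ± 20.9 Snhg1 counts per 1000 Gas5 counts in WT (SD, n = 5) and 308 ± 10.8 in dKO (SD, n = 4). The difference of this ratio was -0.03 on the log2 scale (two-sided exact permutation test, p = 0.667, also after adjustment over the 2 ratios). Without WT 2, 3 and 4 it was -0.12 (exact permutation test, adjusted p = 0.267).

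**Figure D3:**
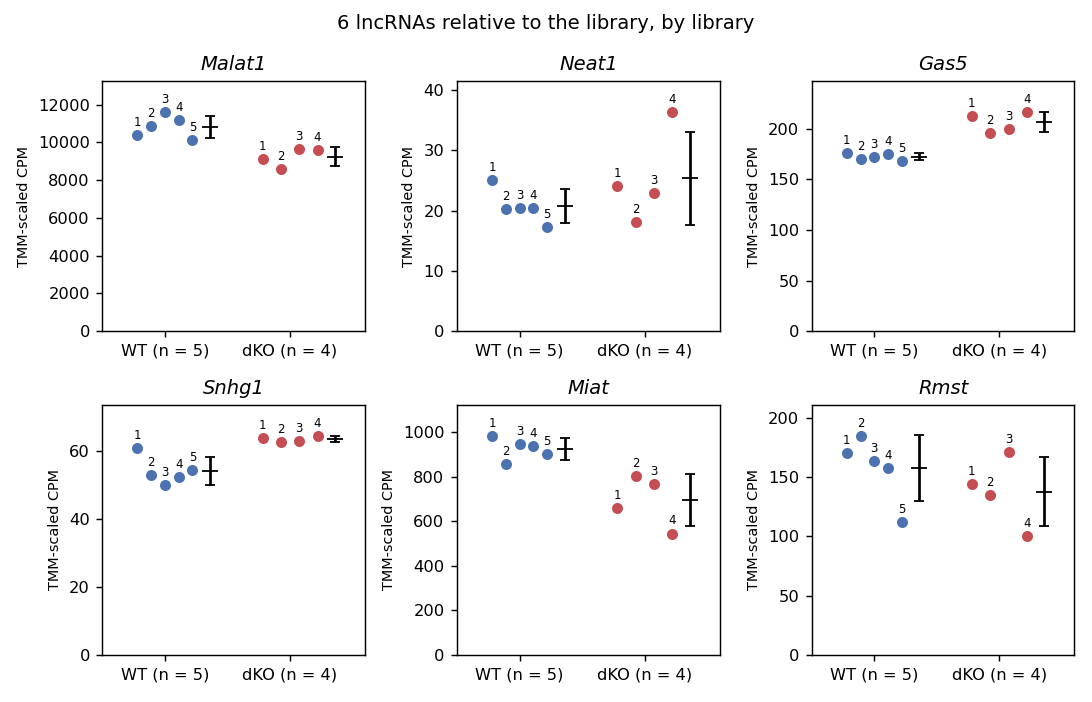
TMM-scaled CPM of the 6 lncRNAs, 1 panel per gene, in 5 WT (blue) and 4 dKO (red) libraries, numbered as in the text, with the mean and SD beside each group. Gas5 and Snhg1 have every dKO library above every WT library, Malat1 and Miat have every dKO library below, and Neat1 and Rmst overlap. Among all genes, 12.6% were higher and 9.74% lower without overlap.

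Among snoRNA host lncRNAs more were called higher than lower, where the shares among all genes were 13.7% and 12%. Of 17 tested, Gas5 and Snhg1 included, 6 rose, 1 fell and 10 did not pass relative to the library; 15 of 17 estimates were above 0, with a median log2 change of 0.21 against -0.01 for all genes. Snhg15 went from 8.61 ± 1.23 to 13.9 ± 3.83 CPM (SD, n = 5 and 4; log2 change 0.69, edgeR adjusted p = 0.00936). Snhg3, the host of the snoRNA U17, went from 5.15 ± 0.568 to 7.02 ± 0.989 CPM (log2 change 0.45, edgeR adjusted p = 0.0173). Zfas1 and Snhg17 also rose, by 0.22 and 0.19 on the log2 scale (edgeR adjusted p = 0.0181 and 0.0298). Snhg11 was the one that fell, from 41.2 ± 5.66 to 28.3 ± 5.93 CPM (log2 change -0.53, edgeR adjusted p = 0.0154).

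Per spike-in count 14 of the 17 hosts rose, against 61.1% of all genes, with a median fold of 1.55 against 1.34 for all genes. When WT 2, 3 and 4 were left out, the number that rose relative to the library was 1 of 17, Gas5, although 15 of 17 estimates were again above 0 and the median was 0.22. The snoRNAs themselves could hardly be read from these libraries. Of 11 snoRNAs listed for Gas5, 2 were in the files and only Snord87 was tested. GENCODE M21 places no gene of that name within Gas5, so its values are not a reading of the Gas5 snoRNAs. Snord87 was at 2.33 ± 0.379 CPM in WT and 2.48 ± 0.189 in dKO (log2 change 0.09, edgeR adjusted p = 0.695).

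Genes of the decay pathway that removes spliced Gas5 and Snhg1 were also examined. Of 16 nonsense-mediated decay factors 3 rose and 1 fell relative to the library, where 13.7% and 12% of all genes did. Their median log2 change was 0.00. Magoh, a core protein of the exon junction complex, rose by 0.27 on the log2 scale (edgeR adjusted p = 0.0023), from 62.7 ± 3.07 to 75.4 ± 3.52 CPM, and the endonuclease gene Smg6 fell from 109.9 ± 3.13 to 95.4 ± 5.69 CPM (log2 change -0.20, edgeR adjusted p = 0.00609). The decapping enzyme gene Dcp2 and Magoh's partner Rbm8a were the other risers, by 0.20 and 0.13 (edgeR adjusted p = 0.0184 and 0.0396). Leaving out WT 2, 3 and 4 ended these 4 calls (edgeR adjusted p = 0.127 for Magoh, 0.157 for Smg6, 0.386 for Dcp2 and 0.521 for Rbm8a). The log2 changes were then 0.20 for Magoh, -0.19 for Smg6, 0.11 for Dcp2 and 0.074 for Rbm8a. Upf1, the central helicase of the pathway, was at 109.7 ± 6.67 CPM in WT and 110 ± 6.98 in dKO.

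The neighbours of Gas5 and Snhg1 include a pair of genes at their start regions, Zbtb37 and Slc3a2. Zbtb37 is transcribed from the opposite strand over the upstream Gas5 start, and at 43.8 CPM in WT and 44.2 CPM in dKO it did not pass the test relative to the library (log2 change 0.01, edgeR adjusted p = 0.942). Whether the counting used strand is not given in the sources used here, so reads of Gas5 and Zbtb37 may not be fully separated. Relative to the library 13.7% of all genes were called higher and 12% lower. Of 5 Gas5 neighbours 1 fell, Rc3h1, by 0.12 on the log2 scale (edgeR adjusted p = 0.0195). Of 7 Snhg1 neighbours 2 rose: Slc3a2, the heavy chain of an amino acid transporter that shares the start region with Snhg1, from 73.1 ± 2.74 to 89.3 ± 5.32 CPM (log2 change 0.29, edgeR adjusted p = 0.00119), and Wdr74, a ribosome assembly factor (log2 change 0.18, edgeR adjusted p = 0.0197). None of these 3 calls held without WT 2, 3 and 4, where the edgeR adjusted p was 0.112 for Rc3h1, 0.0806 for Slc3a2 and 0.213 for Wdr74. The log2 changes were then -0.15 for Rc3h1, 0.24 for Slc3a2 and 0.18 for Wdr74.

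Miat, a lncRNA of neurons and their precursors, fell relative to the library and was flat per spike-in count. In CPM it was at 983, 855, 947, 937 and 903 in WT 1 to 5 and at 659, 803, 768 and 545 in dKO 1 to 4. All dKO libraries lay below all WT libraries, as for 9.74% of all genes, with dKO 4 and dKO 1 the lowest. The mean was 925 ± 48.3 CPM in WT (SD, n = 5) and 694 ± 117 in dKO (SD, n = 4), a fold of 0.750 (log2 change -0.41, 95% interval -0.63 to -0.20, edgeR adjusted p = 0.0102). Without WT 2, 3 and 4 the log2 change was -0.44 but the adjusted p was 0.123.

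Per 1000 spike-in counts Miat was at 53.3, 42.6, 60.4, 57.2 and 56.4 in WT 1 to 5 and at 46.1, 67.8, 60.4 and 45.0 in dKO 1 to 4. The groups overlapped, with dKO 2 the highest library and WT 2 the lowest. The mean was 54.0 ± 6.86 in WT (SD, n = 5) and 54.8 ± 11.1 in dKO (SD, n = 4), a fold of 1.02 (95% interval 0.847 to 1.22, edgeR adjusted p = 0.888). The upper bound of this interval lies below the 1.34-fold rise of the median gene.

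Neuron markers, like Miat, were lower in dKO relative to the library. Of 10 markers 7 fell and 0 rose relative to the library, against 12% and 13.7% of all genes. Their median log2 change was -0.32, and their summed level was 3699 to 4391 CPM in WT and 3150 to 3580 CPM in dKO. Within the groups the sum did not follow Miat: dKO 2 had the lowest sum and the highest Miat of the dKO libraries, and WT 1 the lowest sum and the highest Miat of the WT ones. Dcx, a microtubule protein of young neurons, went from 672 ± 60.8 to 481 ± 25.3 CPM (SD, n = 5 and 4; log2 change -0.48, edgeR adjusted p = 0.000709). With WT 2, 3 and 4 left out, edgeR called 1 of the 10 markers lower relative to the library, and 6 without adjustment (p under 0.05). Their median log2 change was then -0.27, and 0.949% of all genes were called lower. Per spike-in count 1 of the 10 markers rose over all 9 libraries, against 61.1% of all genes. Radial glia markers summed to 2474 to 2854 CPM in WT and 3822 to 4241 CPM in dKO, where 3 of 10 rose (Vim, Nes and Hes1) and 2 fell (Fabp7 and Hes5), with a list median of 0.02; the 2 falls did not pass without WT 2, 3 and 4. Vim (708 to 1688 CPM) and Nes (783 to 1177 CPM) carried the sum, and the other 8 markers summed to 1132 to 1201 CPM in WT and 1127 to 1194 CPM in dKO. What part neuron and progenitor numbers have in the values of Miat and Malat1 was not tested. The 5 tested neighbours of Miat had 0 calls relative to the library by edgeR, DESeq2 or limma-voom, and in edgeR also 0 without adjustment (p under 0.05).

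Rmst, the lncRNA of the midbrain and dorsal midline, had the largest relative spread of the 6 among WT embryos, 17.4% of its mean CPM. In CPM it was at 170.3, 185, 163, 158 and 112 in WT 1 to 5 and at 144, 135, 171 and 100.5 in dKO 1 to 4. The groups overlapped, with dKO 4 the lowest library and WT 5 next to it. The mean was 158 ± 27.5 CPM in WT (SD, n = 5) and 138 ± 29.3 in dKO (SD, n = 4), and the log2 change of -0.19 did not pass the test (95% interval -0.53 to 0.15, edgeR adjusted p = 0.410). It ranged from -0.30 without dKO 3 to -0.068 without dKO 4 when 1 library was left out (-0.12 without WT 2 and -0.29 without WT 5), and was -0.02 without WT 2, 3 and 4.

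Per 1000 spike-in counts Rmst was at 9.23, 9.18, 10.4, 9.63 and 6.98 in WT 1 to 5 and at 10.1, 11.4, 13.5 and 8.29 in dKO 1 to 4. The groups overlapped: dKO 4 lay within the WT range, and WT 5 was the lowest library on this scale. The mean was 9.09 ± 1.28 in WT (SD, n = 5) and 10.8 ± 2.19 in dKO (SD, n = 4), a log2 change of 0.25 (95% interval 0.01 to 0.50, edgeR adjusted p = 0.0695). Leaving out dKO 4 gave 0.36 (edgeR adjusted p = 0.00926), leaving out WT 3 gave 0.31 (adjusted p = 0.0331), leaving out dKO 1 gave 0.28 (adjusted p = 0.0484), and leaving out WT 2, 3 and 4 together gave 0.42 (adjusted p = 0.0191). The call on Rmst per spike-in count therefore turned on single libraries.

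A list of 18 midbrain, diencephalon and dorsal midline markers was set beside Rmst. En1, a midbrain marker, had 3 counts over all 9 libraries, and the dorsal midline gene Wnt8b was at 29.8 CPM in WT. The list summed to 442, 559, 523, 360 and 265 CPM in WT 1 to 5 and to 298, 420, 426 and 315 CPM in dKO 1 to 4. WT 2 was highest for both the list and Rmst, and WT 5 and dKO 4 were among the 3 lowest for both. Much of the sum was the choroid plexus gene Ttr, which made up 23.98 to 66.6% of it by library and was at 222 ± 126 CPM in WT (SD, n = 5) and 124 ± 27.9 in dKO (SD, n = 4). The other 17 genes summed to 298, 205, 175, 162 and 196 CPM in WT 1 to 5 and to 198, 319, 286 and 160 CPM in dKO 1 to 4, with WT 1 and not WT 2 the highest of WT. Of the 14 markers tested, 0 passed relative to the library by edgeR or DESeq2, and also 0 without adjustment (p under 0.05). By limma-voom 3 were higher without adjustment and 0 after it. The part of dissected regions in the spread of Rmst was not tested. Of 5 Rmst neighbours 2 rose relative to the library, where 13.7% of all genes did. They were the centrosomal gene Nedd1 (log2 change 0.29, edgeR adjusted p = 0.00296) and the mitochondrial phosphate carrier gene Slc25a3 (log2 change 0.20, edgeR adjusted p = 0.00927). Neither passed without WT 2, 3 and 4 (Nedd1 log2 change 0.22, adjusted p = 0.143; Slc25a3 0.13, adjusted p = 0.262).

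**Figure D4:**
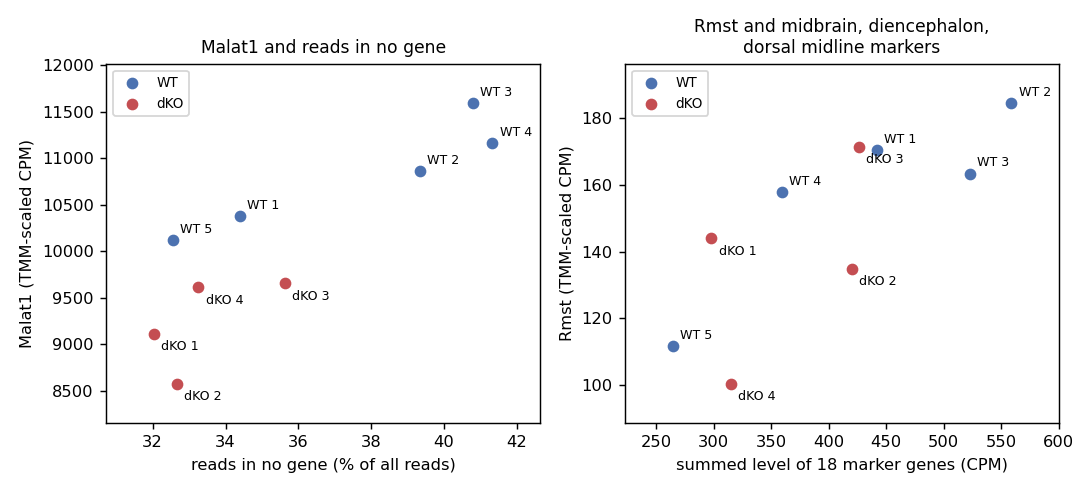
Left, Malat1 in TMM-scaled CPM against the percentage of reads in no gene. Right, Rmst in TMM-scaled CPM against the summed CPM of 18 midbrain, diencephalon and dorsal midline marker genes. Each point is 1 of 9 libraries (WT blue, dKO red). WT 2, 3 and 4 lie at 39.3 to 41.3% of reads in no gene and have the 3 highest Malat1 values. WT 2 has the highest Rmst and the highest marker sum, of which Ttr is 63.4% there.

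Markers of the other cell types in the dissected tissue were present in both groups and overlapped. Microglia markers summed to 49.8 to 60.3 CPM in WT and 56.2 to 66.7 in dKO, endothelial markers to 196 to 258 and 206 to 261, and mesenchyme markers to 365 to 476 and 324 to 474. Erythroid markers spanned 2169 to 6144 CPM in WT and 1752 to 3322 in dKO. WT 1 (6144 CPM) and WT 5 (3969 CPM) both lay above every dKO library. With WT 1 and WT 5 as the only WT libraries, the median relative log2 change of these markers was -0.95. edgeR then called 1 of 6 lower relative to the library and 4 of 6 lower per spike-in count. Results on WT 1 and WT 5 alone therefore include this difference in erythroid markers. The part of these cell types in the values of the 6 lncRNAs was not tested.

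Relative to the library, 5 of 25 other named neural and nuclear lncRNAs rose and 5 fell, against 13.7% and 12% of all genes. The other 15 did not pass, and the list had a median of -0.02. The deepest falls were in Dlx1as and Dlx6os1, antisense and overlapping partners of the Dlx genes of ventral forebrain neurons. Dlx6os1 went from 339 ± 15.3 to 188 ± 45.8 CPM (SD, n = 5 and 4; log2 change -0.85, edgeR adjusted p = 0.00143) and Dlx1as from 32.9 ± 3.84 to 17.6 ± 5.17 CPM (log2 change -0.88, edgeR adjusted p = 0.0035). The host gene of the neuronal microRNA miR-124, Mir124a-1hg, went from 74.5 ± 10.7 to 44.7 ± 3.99 CPM (log2 change -0.74, edgeR adjusted p = 0.000604). These were the 3 of 25 that also fell per spike-in count, by 0.42, 0.47 and 0.31 on the log2 scale for Dlx6os1, Dlx1as and Mir124a-1hg. Among all genes 0.698% fell per spike-in count.

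C130071C03Rik and the imprinted Meg3 were the other lncRNAs that fell relative to the library, by 0.28 and 0.32 on the log2 scale. The 5 that rose were Six3os1, from 40.7 ± 11.2 to 70.4 ± 18.5 CPM (log2 change 0.81, edgeR adjusted p = 0.0155), Pvt1 (0.76), the imprinted H19 (0.55), Mirg (0.33) and Trp53cor1 (0.98, at only 0.411 CPM in WT and 0.831 CPM in dKO). Tug1, at 330.1 CPM in WT and 329.8 CPM in dKO, and Sox2ot, at 103 and 96.4 CPM, missed the threshold. With WT 2, 3 and 4 left out the list had 0 higher and 1 lower by edgeR, Mir124a-1hg, against 2 and 5 without adjustment (p under 0.05). Antisense genes such as Dlx1as and Six3os1 are uncertain for the reason given for Zbtb37.

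**Figure D5:**
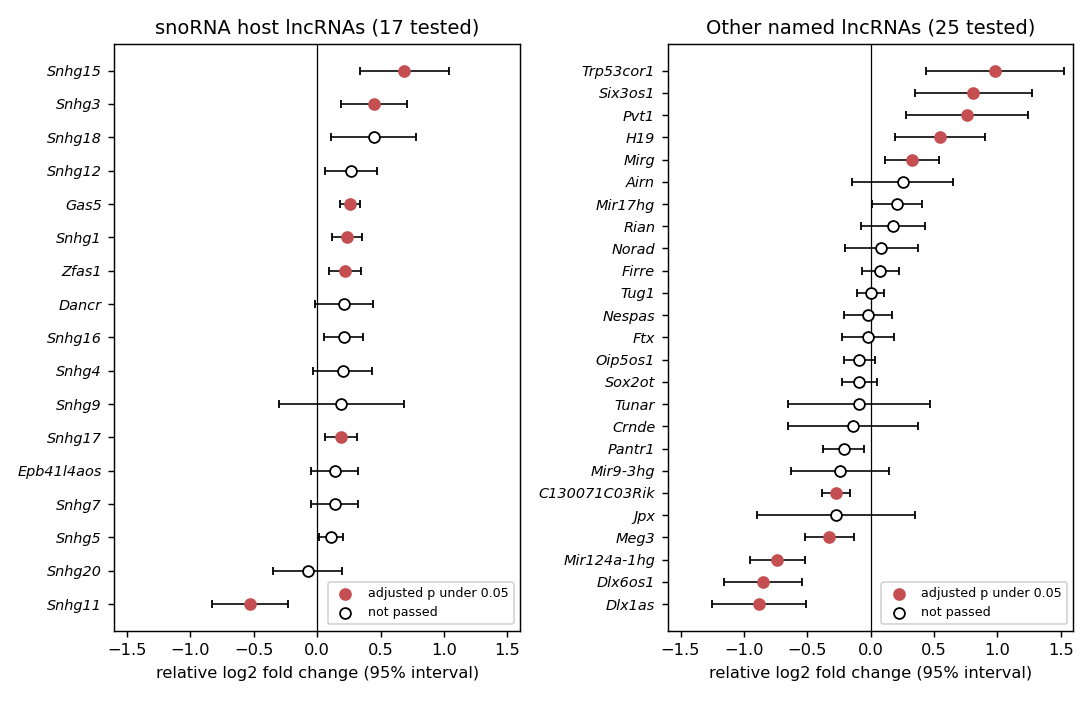
Relative log2 fold change of dKO over WT, with 95% intervals, for 17 snoRNA host lncRNAs (left, Gas5 and Snhg1 included) and 25 other named lncRNAs (right). Filled points had an adjusted p under 0.05. On the left 15 of 17 estimates lie above 0 and Snhg11 is lowest at -0.53. On the right the estimates run from -0.88 for Dlx1as to 0.98 for Trp53cor1.

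As a class, the 674 tested genes that RefSeq calls lncRNA had a median relative log2 change of -0.12, and 35 (5.19%) rose and 71 (10.5%) fell. For 14217 protein-coding genes the median was -0.01, and 15% rose and 13.3% fell. Per spike-in count the median fold was 1.23 for lncRNAs and 1.35 for protein-coding genes. The lncRNAs had a median of 43.9 counts per library against 859 for protein-coding genes, so their calls rest on less depth. Without WT 2, 3 and 4 the relative median of the lncRNAs was -0.0034, with 8 higher (1.19%) and 4 lower (0.593%), against 2.85% higher and 1.09% lower for protein-coding genes. The difference between the classes was not tested.

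For each lncRNA the genes with the most similar profile over the 9 libraries were found by Pearson's r of log2 CPM among 9647 genes of at least 10 CPM, as a description. For Malat1 they were Lrrn2 (r = 0.988), Abca1 (0.986) and Ncam1 (0.983), a neural adhesion molecule. For Gas5 they were Intu (0.998), Mars (0.995), the methionyl-tRNA synthetase gene, and Psat1 (0.991), an enzyme of serine synthesis. Snhg1 was closest to Eml1 (0.993), Cpox (0.988) and Orc1 (0.987), a subunit of the origin recognition complex. Miat was closest to Slc16a13 (0.984), Adam23 (0.981) and the pseudogene Scp2-ps2 (0.980). The highest values were lower for Neat1 and Rmst. They were Mocs1 (0.972), Chpf2 (0.954) and Ddx56 (0.923) for Neat1, and Commd9 (0.925), Dis3l2 (0.920) and Ppp1cc (0.917) for Rmst. Predicted (Gm), Rik, LOC, Mir, Snor and mt- symbols, Xist and Y-linked genes were among those left out of the search. These correlations include the difference between the groups and other differences between libraries that remain after scaling for depth. Whether they exceed the highest values that unrelated genes reach among 9647 candidates over 9 libraries was not tested.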

How the data were processed

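The authors deposited whole-number counts per gene symbol, 1 file per library. Their tools were STAR and HTSeq and their build mm9, per the submitters' processing notes; for versions, annotation and strand setting, nothing is stated in the labels at hand. Per the labels' protocols a stranded total RNA kit was used. The labels put the RNA in 5 control and 4 dKO embryos, so libraries were taken as separate embryos. Multi-mapped reads and the 5 counter rows were outside gene counts, and reads in no gene were 32.0 to 41.3% of all reads. Counts were analysed in R 4.3.3. edgeR 4.0.16 (filterByExpr, quasi-likelihood test, Benjamini-Hochberg over 17182 of 34590 genes) was fitted with the total of 92 spike-in rows as library size, and again with TMM factors over genes, after the code was tested on simulated data. DESeq2 1.42.0, limma-voom 3.58.1, other filters, scalings, covariates and left-out libraries were alternatives. Total ratios used exact permutation tests. Because all genes are scaled by the same 9 spike-in sums, their p-values on that scale are linked. The members and 19 gene lists were chosen with earlier results of these data known. Of 219 list symbols 195 were in the files, 27 under another symbol by RefSeq synonyms. Named were the 6 members, up to 4 genes per list with the smallest adjusted p (2 in short lists), neighbours, and the 3 most similar genes. Other named list genes were chosen after their values were seen. Motifs and lengths came from RefSeq GRCm38.p6 and GENCODE M21, not the build of the counts.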

Additional observations from a re-analysis of the deposited data

Results flagged for a closer look

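Within the 5 WT libraries, Snhg1 per 1000 spike-in counts was 2.64 in WT 2, far below the other 4, which lay between 3.19 and 3.39. The ratio of Neat1 to Malat1 was 2.42 per 1000 in WT 1, far above the other WT libraries, which lay between 1.70 and 1.86. A sample was singled out where its gap to the nearest other sample was a large part of the range of its group (Dixon's 95% critical value). Of 30 groups tested 2 had such a sample, and chance gives about 1 in 20.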

How the results depend on the processing

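Of 330 results recomputed under an alternative, 292 kept their direction and side of the threshold, or a count within 1.5 times. Gas5 on both scales, and Neat1 and Snhg1 per spike-in count, kept their calls in every alternative run. Without WT 2, 3 and 4, 432 genes were higher and 163 lower relative to the library, in place of 2355 and 2067, and 43 in place of 120 were lower per spike-in count. The log2 changes relative to the library were then -0.15 for Malat1, 0.14 for Snhg1 and -0.44 for Miat, none passing. Per spike-in count Miat was at -0.00059, and Rmst passed at 0.42. Gene counts per spike-in count then differed by 0.45 (log2, exact permutation p = 0.0667, the smallest that 15 assignments allow).

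With the share of reads in no gene as a covariate, 989 genes were higher and 738 lower relative to the library, and 42 lower per spike-in count. Malat1 (-0.14), Snhg1 (0.16) and Miat (-0.40) no longer passed, Rmst turned to 0.024 relative to the library (adjusted p = 0.956) and passed at 0.48 per spike-in count. With reads in no gene added to the library size, which moved the median of all genes to 0.13, 583 genes were lower and Malat1 (-0.094) and Miat (-0.28) did not pass. DESeq2 called 79 genes lower per spike-in count and no filter gave 187. The causes were not tested.

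Leaving out 1 library gave 67 to 203 genes lower per spike-in count, 1782 to 2456 higher and 1369 (without WT 4) to 2275 lower relative to the library. Single libraries moved Miat per spike-in count between -0.10 and 0.11 (below 0 without WT 2, dKO 2 or dKO 3), Rmst between 0.13 and 0.36, Malat1 relative to the library between -0.25 and -0.19, and the Snhg1 to Gas5 ratio between -0.052 and 0.0088 (above 0 without WT 1).

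Libraries of the same number did not vary together (correlations -0.18, -0.16, -0.35 and 0.13), so numbers were not taken as pairs. With the replicate block, Malat1 was at -0.25 relative to the library (adjusted p = 0.0560), and no other call on the 6 lncRNAs changed. Depth limits Neat1 most, with 329 to 1083 counts per library.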
